A study of Mus musculus with 16 samples.

Results

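The RNase A family is a set of small secreted ribonucleases, and 7 of its mouse genes were followed, namely *Rnase4*, *Rnase6*, *Ang*, *Ear1*, *Ear2*, *Ear6* and *Ear10*. They were found by symbol among the 54347 genes of the count table, which listed all 7. The family was chosen by the measured log2 fold change of *Rnase6* between UREΔ and wild-type cells, which is among the largest falls in both cell types, so the genotype differences of the members are given as a description with no test. Tests were kept for the change from LSKs to GMPs within a genotype, for the interaction of members with counts in all groups, and for genes outside the member list.

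RNA was sequenced from 2 sorted populations of mouse bone marrow, with 4 mice per genotype and cell type and 16 libraries in all. UREΔ mice lack the upstream regulatory element (URE), an enhancer of *Spi1*, the gene of the transcription factor PU.1, and controls were wild-type (WT) littermates. All mice were on a C57BL/6 background and 8 to 12 weeks old. LSKs (Lin-Sca-1+c-Kit+ cells) are the compartment of stem cells and multipotent progenitors, and GMPs (Lin-Sca-1-c-Kit+Cd16/32+ cells) the compartment of granulocyte and monocyte progenitors. The 4 groups are thus WT LSKs, UREΔ LSKs, WT GMPs and UREΔ GMPs, each with replicates 1 to 4. The deletion was not limited to the sorted cells. In such bulk samples, fewer cells of a type and less RNA per cell cannot be told apart.

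Enzymes of this family share a fold held by disulfide bonds and cut single-stranded RNA after pyrimidines, and many of them also act against microbes. RNase 6 and RNase 4 are found in monocytes and macrophages among other cells, angiogenin (Ang) cuts tRNA in stressed cells and acts on blood vessels and hematopoietic progenitors, and the eosinophil-associated ribonucleases (Ear) form a cluster that has expanded in rodents and are stored in eosinophil granules. In the cytosol, the ribonuclease inhibitor Rnh1 binds these enzymes tightly.

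All 7 genes lie on chromosome 14 (GRCm38, GENCODE M21) and are annotated as protein coding. *Rnase4* (ENSMUSG00000021876, chr14:51091077-51106151, plus strand) and *Ang* (ENSMUSG00000072115, chr14:51091150-51102009, plus strand) overlap and share 219 exonic bases. *Rnase6* (ENSMUSG00000021880, chr14:51123908-51132187, plus strand) follows them, and *Ear6* (ENSMUSG00000062148, chr14:51853699-51854643, plus strand) lies further along. *Ear1* (ENSMUSG00000072601, chr14:43818765-43875517, minus strand), *Ear10* (ENSMUSG00000090166, chr14:43922720-43923559, minus strand) and *Ear2* (ENSMUSG00000072596, chr14:44102654-44103534, plus strand) form a separate group.

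The coding sequences of the *Ear* genes are so alike that reads can fit several of them, which bears on every *Ear* value below. *Ear2* was identical to *Ear10* at 97% of aligned coding bases, *Ear1* to *Ear2* at 95.1% and *Ear6* to the other *Ear* genes at 87.3% to 87.6%. In contrast, the coding bases of *Rnase4*, *Rnase6* and *Ang* were identical to each other and to the *Ear* genes at 46.1% to 55%. The start of the 4 *Ear* reading frames is shown (coding bases 1 to 90, 5′ to 3′, GENCODE M21) because it shows how little there is to tell the copies apart. Capitals mark the 14 positions at which at least 1 of the 4 genes differs.
Ear1: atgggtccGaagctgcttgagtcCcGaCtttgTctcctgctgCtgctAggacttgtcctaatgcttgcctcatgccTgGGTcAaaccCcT
Ear2: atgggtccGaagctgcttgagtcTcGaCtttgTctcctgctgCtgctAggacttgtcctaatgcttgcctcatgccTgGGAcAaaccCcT
Ear6: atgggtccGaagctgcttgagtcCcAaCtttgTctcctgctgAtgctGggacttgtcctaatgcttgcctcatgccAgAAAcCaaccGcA
Ear10: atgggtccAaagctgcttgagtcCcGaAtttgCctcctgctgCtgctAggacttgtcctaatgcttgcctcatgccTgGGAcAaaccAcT
Measured over whole transcripts, the share of 31-base words that also occur in transcripts of other genes was 73.6% for *Ear1*, 60.5% for *Ear2*, 49.5% for *Ear10* and 8.48% for *Ear6*, pseudogenes of the cluster included. The share was 21.4% for *Ang*, 10% for *Rnase4* and 0.827% for *Rnase6*. Counts of *Rnase6* and *Ear6* thus rest mostly on sequence of their own, whereas counts of *Ear1*, *Ear2* and *Ear10* depend on how the estimate divided shared reads.

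**Figure D1:**
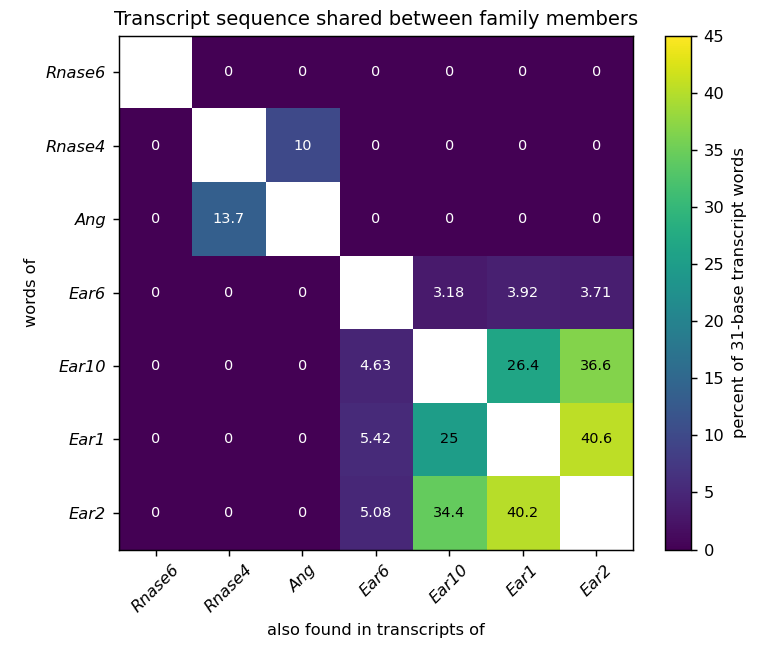
Percentage of the 31-base words of each member's transcripts (rows) that also occur in transcripts of another member (columns), as a color scale with the values printed. *Ear1* and *Ear2* share 40.6% and 40.2% of their words, *Rnase4* and *Ang* share 10% and 13.7%, and *Rnase6* shares none with another member.

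PU.1 binds a purine-rich sequence with a GGAA core, and the letters AGGAAGT were looked up on both strands in the RefSeq promoter windows (GRCm38.p6, 250 bases before to 50 bases after each start), which held all 7 members. The motif was chosen after promoters of the family had been seen. It occurred in 9.35% of all 32851 windows. Of 3 windows of *Rnase6*, 2 that overlap, the second window of *Rnase4* and a window of *Rnase10*, a further family gene described below, held it. The 30 bases around each match are shown on the plus strand with the motif in capitals, for *Rnase6* at chr14:51128837-51128866, for *Rnase4* at chr14:51095946-51095975 and for *Rnase10* at chr14:51007784-51007813, where it lies on the reverse strand.
Rnase6: tacagtgaaaaAGGAAGTgctaagcccaca
Rnase4: aggaggagcccAGGAAGTgctgtgtgtatt
Rnase10: aggtagaggatACTTCCTgtcgtttgctta
The letters TGTGGT, the core to which RUNX factors bind, were found in *Rnase10* windows alone among these genes, against 16.8% of all windows. These matches are descriptions of sequence and not bound sites.

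Total counts ranged from 20028302 to 29128858 per library. *Spi1*, checked in every library first, was at 69.5 to 166 CPM (counts scaled to a common library size) in WT LSKs, 1.13 to 4.44 CPM in UREΔ LSKs, 84.8 to 181 CPM in WT GMPs and 15.6 to 28.6 CPM in UREΔ GMPs, and its level was lower in UREΔ in both cell types (log2 fold change -5.39 ± 0.47 SE in LSKs, adjusted p = 0.000266, and -2.73 ± 0.30 SE in GMPs, adjusted p = 0.00095, edgeR). All 7 GMP markers were higher in GMPs than in LSKs in either genotype, and 5 of 7 LSK markers were lower in WT GMPs and 6 of 7 in UREΔ GMPs. In UREΔ against WT, monocyte markers were lower for 6 of 11 tested genes in LSKs and 8 of 12 in GMPs (7 and 10 in a fit blocked on the replicate number), and dendritic cell markers for 1 of 7 and 4 of 5 (3 and 4 with the block). Late neutrophil markers were higher for 1 of 5 tested genes in either cell type, and for 4 of 5 with the block. Basophil and mast cell markers were higher for 2 of 5 in LSKs, and in GMPs higher for 1 and lower for 2 of 6. Of 8 erythroid and megakaryocyte markers, 1 was higher and 1 lower in LSKs (1 and 2 with the block), and edgeR called none in GMPs, with 0 at an unadjusted p under 0.05 and 0 by DESeq2. Lymphoid markers were lower for 1 of 5 and 2 of 2 (2 and 2 with the block). Among these calls, *Cd14*, *Cx3cr1*, *Ly86* and *Rag1* in LSKs and *Klf4* and *Il7r* in GMPs passed the filter through the WT libraries, with few counts in UREΔ. Their calls are built in and nothing is read from them, and other called markers may share this limit. By the Y-linked *Ddx3y*, UREΔ replicate 1 and WT replicates 1 to 3 were male and the other libraries female, in LSKs and GMPs alike, so that sex was not balanced between the genotypes.

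*Rnase6* had the highest level per kilobase of transcript of all members in WT cells and was almost absent from UREΔ cells. In WT LSKs replicates 1 to 4 had 1433, 2120, 1737 and 1410 counts (45.9, 71.2, 67.8 and 56.8 CPM), and in UREΔ LSKs 2, 24, 0 and 2 counts. In WT GMPs they had 465, 758, 473 and 403 counts (20.1, 31.5, 23.1 and 20.9 CPM), and in UREΔ GMPs 12, 2, 27 and 0 counts. The lowest WT library thus lay at 20.1 CPM and the highest UREΔ library, GMP replicate 3, at 1.38 CPM. The log2 fold change of UREΔ against WT was -7.90 ± 0.87 (SE) in LSKs and -5.49 ± 0.86 in GMPs. As a ratio of the counts pooled over a group per pooled library size, UREΔ LSKs had 0.0045 of the WT level (95% counting interval 0.00299 to 0.00651) and UREΔ GMPs 0.022 (0.0157 to 0.03). These values were used to choose the family. *Rnase6* ranked 15 among the 570 genes lower in UREΔ LSKs and 19 among the 502 genes lower in UREΔ GMPs.

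A single library carried most of what was left in UREΔ LSKs. Replicate 2 held 24 of the 28 counts there, and without it the log2 fold change in LSKs was -10.01. In UREΔ GMPs, replicate 3 held 27 of the 41 counts, and without it the log2 fold change in GMPs was -6.66. Over all genes the libraries fell into 2 sets, replicates 1 and 4 and replicates 2 and 3. Within these sets the log2 fold change was -9.26 and -7.37 in LSKs and -6.06 and -5.18 in GMPs. With a term for sex the log2 fold change was -8.16 in LSKs and -5.37 in GMPs. As *Rnase6* was chosen by its fall, these values only describe it. The difference between the cell types in this effect was 2.36 ± 1.16 (SE) on the log2 scale and 4.48 without UREΔ LSK replicate 2, given as a description.

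In WT cells *Rnase6* was lower in GMPs than in LSKs. The mean was 60.4 ± 11.5 CPM (SD, n = 4) in LSKs and 23.9 ± 5.20 CPM (SD, n = 4) in GMPs, with no overlap and a lower value in GMPs in 4 of 4 replicate numbers. The log2 fold change was -1.35 ± 0.22 (SE, edgeR, adjusted p = 0.00204), which is 0.402 of the LSK level as a ratio of pooled counts per pooled library size. It was -1.32 in replicates 1 and 4 and -1.28 in replicates 2 and 3 alone (adjusted p = 0.0149 and 0.026). In a joint fit of all 16 libraries, where the spread of the UREΔ libraries with few counts enters, the value was -1.34 ± 0.72 with an adjusted p of 0.184. The call held when any 1 library was left out of the fit of WT libraries, with adjusted p values up to 0.00942. In UREΔ cells, *Rnase6* had 28 counts in LSKs and 41 in GMPs and was below the filter on low counts, with overlapping groups and a ratio of pooled counts, GMPs to LSKs, of 1.96 per pooled library size (95% counting interval 1.19 to 3.30). Without the filter the log2 fold change was 1.03 ± 1.24 (SE, edgeR, adjusted p = 0.618), so that the difference did not exceed the spread between libraries.

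*Spi1* did not follow this order. Its level in WT LSKs and WT GMPs overlapped (log2 fold change of GMPs against LSKs 0.16 ± 0.30 SE, adjusted p = 0.747), while in UREΔ it was higher in GMPs (2.78 ± 0.42 SE, adjusted p = 0.00183). Over the 16 libraries the log2 levels of *Rnase6* and *Spi1* had a Pearson r of 0.864, which describes mainly the separation of the genotypes.

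**Figure D2:**
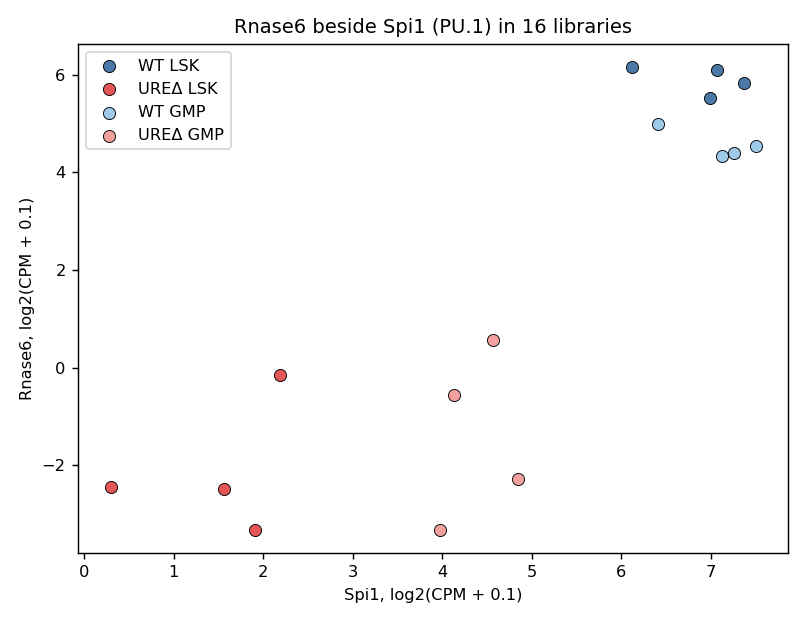
Level of *Rnase6* (vertical) against *Spi1* (horizontal) in each of the 16 libraries, both as log2(CPM + 0.1), colored by group. The 8 WT libraries form a set in the upper right corner, in which LSKs lie above GMPs for *Rnase6* at like *Spi1*, and UREΔ GMPs lie to the right of UREΔ LSKs for *Spi1* with overlapping *Rnase6*.

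The genes whose log2 CPM followed *Rnase6* most closely over the 16 libraries, among the 9076 genes whose mean log2 CPM was 3 or more, were *Smim5* (Pearson r = 0.951), *Ctss* (0.944), *Dpp4* (0.942), *Dock10* (0.941) and *Ms4a6b* (0.933). *Ctss* encodes cathepsin S, a lysosomal protease of antigen-presenting cells, and *Dpp4* a surface peptidase. The libraries fall into 4 groups with large differences between them, and the values describe this shared order of groups. Markers of monocytes and macrophages had a summed level of 83.5 to 171 CPM in WT LSKs, 24.2 to 40.5 CPM in UREΔ LSKs, 1770 to 2380 CPM in WT GMPs and 411 to 1925 CPM in UREΔ GMPs, and none of the 12 was at 0 in a whole group. The sums of the genotypes did not overlap in LSKs but did in GMPs, through UREΔ GMP replicate 2 alone, as the other UREΔ GMP libraries had 411 to 810 CPM. *Ly6c2* had a positive log2 fold change of UREΔ against WT in both cell types (0.84 and 1.01, adjusted p = 0.447 and 0.287, edgeR). Between the WT cell types the order was opposite to that of *Rnase6*, with 10 of 12 markers higher in GMPs. The 9 dendritic cell markers, with genes of MHC class II among them, had a summed level of 251 to 656 CPM in WT LSKs, 95.4 to 309 CPM in UREΔ LSKs, 209 to 319 CPM in WT GMPs and 20.6 to 52.2 CPM in UREΔ GMPs. This list ran the same way as *Rnase6* between the WT cell types, where *Cd74*, *Ccr9* and *H2-Aa* were lower in GMPs, or 5 of 9 markers with the block, and no marker was higher. Not every marker was lower in UREΔ, since *Ccr9* had a log2 fold change of 2.05 in LSKs, which edgeR did not call and DESeq2 did (2.08, adjusted p = 0.0466). *Siglech* was at 0 in all UREΔ LSK libraries and *Cd209a* in all UREΔ GMP libraries. The part of either list in the *Rnase6* values was not tested.

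*Rnase4* and *Ang* had low levels that differed little between the genotypes. *Rnase4* was at 7.11, 10.6, 11.01 and 8.50 CPM in WT LSKs, 8.62, 18.7, 5.14 and 7.82 CPM in UREΔ LSKs, 4.29, 6.44, 6.79 and 5.97 CPM in WT GMPs and 5.79, 9.19, 10.0 and 8.22 CPM in UREΔ GMPs (replicates 1 to 4). UREΔ LSK replicate 2 was the highest of all, and without it the log2 fold change of UREΔ against WT LSKs was -0.39 and that of UREΔ GMPs against UREΔ LSKs 0.21, both of the opposite sign to the values of all libraries. *Ang* was at 2.44, 2.72, 3.75 and 3.34 CPM in WT LSKs, 1.99, 4.11, 4.59 and 2.63 CPM in UREΔ LSKs, 1.73, 2.49, 3.08 and 1.66 CPM in WT GMPs and 1.06, 1.83, 1.44 and 2.20 CPM in UREΔ GMPs. By group means *Rnase4* ranked UREΔ LSKs, WT LSKs, UREΔ GMPs, WT GMPs, and *Ang* UREΔ LSKs, WT LSKs, WT GMPs, UREΔ GMPs, and each group overlapped its neighbour in these orders.

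For UREΔ against WT, the log2 fold change of *Rnase4* was 0.08 ± 0.39 (SE) in LSKs and 0.49 ± 0.27 in GMPs, where it was higher in UREΔ in 4 of 4 replicate numbers. That of *Ang* was 0.09 ± 0.36 in LSKs and -0.48 ± 0.36 in GMPs. For *Ang* in LSKs, the sign depended on the replicates, with -0.35 in replicates 1 and 4 and 0.39 in replicates 2 and 3. Counts of both genes summed, which removes the question of shared exons, gave 0.28 ± 0.26 in GMPs.

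From LSKs to GMPs, *Rnase4* and *Ang* had lower levels that mostly did not pass the test. In WT cells *Rnase4* did not overlap between LSKs and GMPs and was lower in GMPs in 4 of 4 replicate numbers (log2 fold change -0.68 ± 0.25 SE, adjusted p = 0.0726). With the replicate number as a block it passed the test (-0.68 ± 0.15 SE, adjusted p = 0.00613). *Ang* had -0.46 ± 0.31 (SE, adjusted p = 0.312), and was lower in GMPs in 4 of 4 replicate numbers in either genotype. In UREΔ cells *Ang* had -1.07 ± 0.40 (SE, adjusted p = 0.0883, 0.0564 with the block) and *Rnase4* -0.31 ± 0.39 (SE, adjusted p = 0.621). Within replicates 1 and 4 and within 2 and 3, the values of *Rnase4* in WT were -0.61 and -0.64, and those of *Ang* in UREΔ -0.50 and -1.40. Summed, *Ang* and *Rnase4* gave -0.62 ± 0.24 in WT (adjusted p = 0.0844) and -0.47 ± 0.33 in UREΔ (adjusted p = 0.354).

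The genes most like *Rnase4* over the 16 libraries by Pearson r of log2 CPM were *Rad52* (0.854), *Mrrf* (0.847), *Rdm1* (0.822), *Fbxo8* (0.814) and *Fundc1* (0.804), and those most like *Ang* were *S100a6* (0.904), *Peli1* (0.879), *Fer* (0.852), *Prex2* (0.851) and *Arid5b* (0.844). No gene was in both sets. *Rnase4* and *Ang* share a promoter window in RefSeq (chr14:51090827-51091126). *Spi1* had r = -0.23 with *Rnase4* and -0.09 with *Ang*.

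The *Ear* genes were measured with few counts and mostly in WT GMPs. *Ear1* had 0, 1, 0 and 1 counts in WT LSKs, 0 in each UREΔ LSK library, 23, 132, 19 and 12 counts in WT GMPs and 3, 6, 1 and 0 counts in UREΔ GMPs. *Ear6* had 1, 0, 1 and 0 counts in WT LSKs, 0 in each UREΔ LSK library, 20, 141, 21 and 33 counts in WT GMPs and 1, 16, 3 and 15 counts in UREΔ GMPs. *Ear2* was the member of this group with counts in every library, with 6, 34, 13 and 19 in WT LSKs, 10, 17, 27 and 9 in UREΔ LSKs, 27, 144, 28 and 17 in WT GMPs and 6, 6, 29 and 12 in UREΔ GMPs. *Ear10* had 0 counts in all 16 libraries, which allows a level of up to 0.00792 CPM over the libraries together (3 counts) and 0.0961 to 0.169 CPM in single libraries. It shares 36.6% of its 31-base words with *Ear2*, and how reads were divided between them was not tested.

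In WT GMPs, replicate 2 stood apart for the *Ear* genes. It had 5.48 CPM of *Ear1*, 5.98 CPM of *Ear2* and 5.86 CPM of *Ear6*, against 0.623 to 0.996, 0.882 to 1.37 and 0.866 to 1.71 CPM in the other 3 libraries. The 7 eosinophil markers, with *Prg2* (major basic protein) and *Epx* (eosinophil peroxidase) among them, had a summed level of 1266 CPM in this library and 607 to 881 CPM in the others. *Prg2* was at 997 CPM there and at 396 to 619 CPM in the others, whereas *Epx* was at 147 CPM and at 29.4 to 231 CPM. Per 1000 CPM of these markers, *Ear1*, *Ear2* and *Ear6* together had 13.7 CPM in replicate 2 and 3.65 to 5.0 CPM in the others. On the same scale, UREΔ GMP libraries had 5.07 to 7.39 CPM, which is within the range of WT GMPs. This describes the sum and not each gene, since *Ear2* held 29 of the 33 counts in UREΔ GMP replicate 3. In LSKs, where the markers were low, the value was 11.9 to 56.4 CPM in WT and 12.9 to 144 CPM in UREΔ. The part of these markers in the *Ear* values was not tested.

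From LSKs to GMPs in WT cells, *Ear1* went from 2 to 186 counts over the group and *Ear6* from 2 to 215. They passed the filter on low counts only through the GMP libraries, so a difference is built into their being tested and no p is given. As a ratio of pooled counts per pooled library size, *Ear1* was 119-fold higher (95% counting interval 32.5 to 992) and *Ear6* 138-fold higher (37.7 to 1145). The groups did not overlap, and GMPs were higher in 4 of 4 replicate numbers. The fitted log2 fold changes were 6.44 and 6.68 and depend on the prior count. Without WT GMP replicate 2 they were 5.26 and 5.74. In replicates 1 and 4 alone they were 5.14 and 5.82, and in replicates 2 and 3 alone 7.19 and 7.27.

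*Ear2* had a log2 fold change of 1.84 ± 0.74 (SE) in the same comparison and did not pass the test (adjusted p = 0.0928), with overlapping groups and higher values in GMPs in 4 of 4 replicate numbers. It was past the thresholds with the replicate block (1.65 ± 0.44 SE) and was 0.86 without WT GMP replicate 2. WT LSK replicate 1 held 6 counts and the other WT LSK libraries 34, 13 and 19, so libraries of both groups reached the filter. As the value rested in part on WT GMP replicate 2, nothing is read from the pass with the block.

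In UREΔ cells the counts of *Ear1* and *Ear6* were too low for the filter. *Ear6* had 0 counts in LSKs and 35 in GMPs, which is at least 15.6-fold higher in GMPs, taking 3 counts over the LSK group as the limit. *Ear1* had 0 and 10 counts and was at least 4.47-fold higher. Without the filter, the adjusted p (edgeR) was 0.0206 for *Ear6* and 0.104 for *Ear1*. *Ear2* had 0.13 ± 0.65 (SE, adjusted p = 0.906), and its sign depended on 1 library, with -0.58 without UREΔ GMP replicate 3 and 0.64 without UREΔ LSK replicate 3.

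For UREΔ against WT in GMPs, given as a description, *Ear1* had 0.0606 of the WT level as a ratio of pooled counts per pooled library size (95% counting interval 0.0286 to 0.114), *Ear6* 0.183 (0.124 to 0.263) and *Ear2* 0.276 (0.201 to 0.375). The log2 fold changes were -3.91 ± 0.99, -2.34 ± 0.88 and -1.75 ± 0.77 (SE), and without WT GMP replicate 2 they were -2.70, -1.38 and -0.73. Without UREΔ GMP replicate 3, *Ear2* had -2.51. Groups did not overlap for *Ear1* and *Ear6* and overlapped for *Ear2*. The eosinophil markers moved the same way, with a sum of 84 to 318 CPM in UREΔ GMPs against 607 to 1266 CPM in WT GMPs, and 4 of 6 tested markers (*Prg2*, *Prg3*, *Epx* and *Il5ra*) lower, or 5 of 6 with the block. *Il5ra*, the receptor of the eosinophil cytokine interleukin 5, was at 0 in all UREΔ GMP libraries and passed the filter only through WT GMPs. Its call is thus built in and nothing is read from it, which leaves *Prg2*, *Prg3* and *Epx*. In LSKs the sum was 15.0 to 20.8 CPM in WT and 7.06 to 29.1 CPM in UREΔ, and *Ear2* had -0.10 ± 0.61 (SE). There 1 of 5 markers, *Alox15*, was lower (2 with the block). *Alox15* had 0, 2, 0 and 3 counts in UREΔ LSKs and passed the filter only through WT LSKs, so its call is built in.

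**Figure D3:**
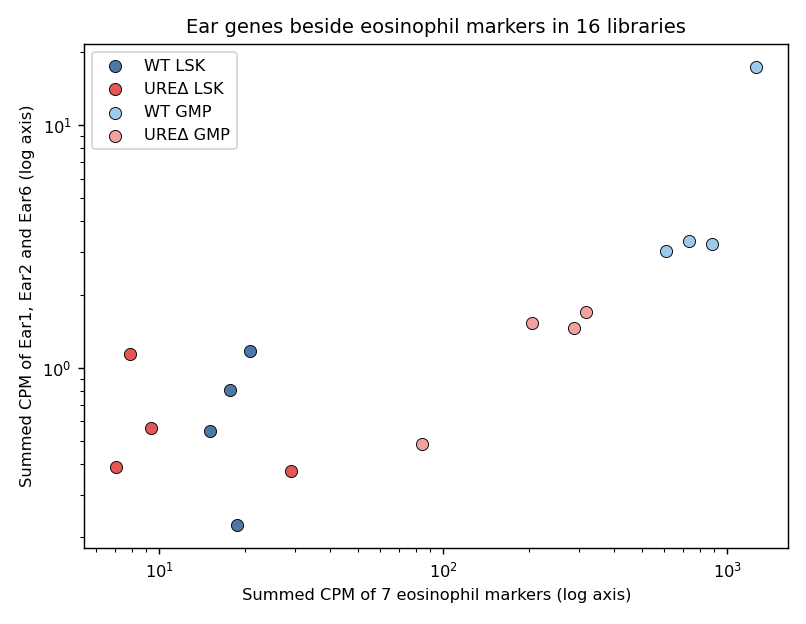
Summed CPM of *Ear1*, *Ear2* and *Ear6* (vertical, log axis) against the summed CPM of 7 eosinophil markers (horizontal, log axis) in each of the 16 libraries, colored by group. WT GMPs lie highest on both axes, with replicate 2 at 17.3 CPM of *Ear* genes and the other WT GMPs at 3.03 to 3.32, and UREΔ GMPs at 0.482 to 1.69.

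The genes most like *Ear1* by Pearson r over the 16 libraries were *Agpat5* (0.934), *Fdps* (0.923), *Ctsz* (0.912), *Ccdc86* (0.904) and *Fam111a* (0.903), and those most like *Ear6* were *Npm3* (0.931), *Ctsz* (0.927), *Erp29* (0.917), *Usp14* (0.916) and *Fh1* (0.913). *Ctsz*, which encodes the lysosomal protease cathepsin Z, was in both sets. For *Ear2* they were *Scaf4* (0.831), *Fahd1* (0.811), *Llph* (0.81), *Gnl3* (0.802) and *Wdr55* (0.801).

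**Figure D4:**
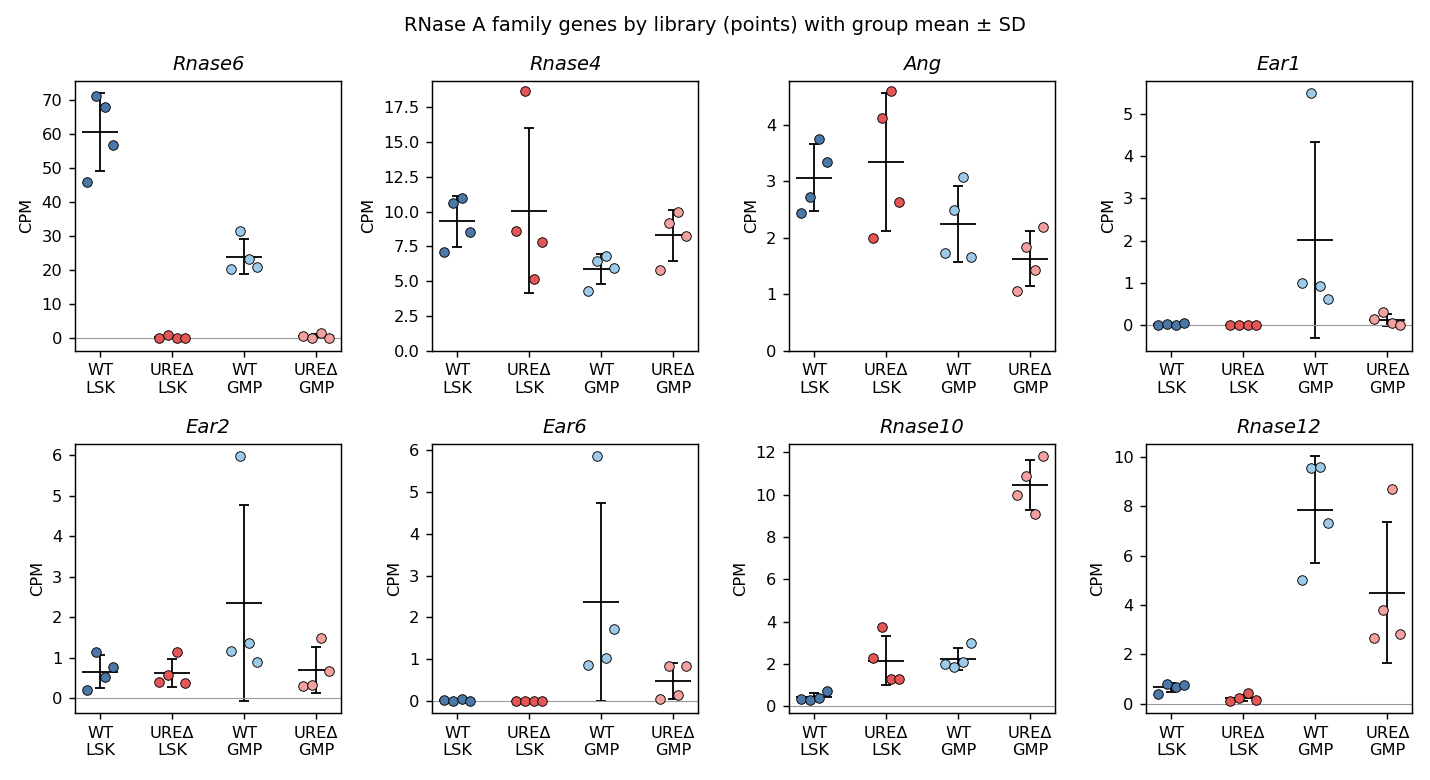
CPM of 6 members (*Ear10*, at 0 throughout, is not drawn) and of *Rnase10* and *Rnase12* in each library (points, replicates 1 to 4 from left to right) with the group mean and SD (bars), for WT and UREΔ LSKs and GMPs on linear axes. *Rnase6* separates the genotypes, *Rnase4* and *Ang* overlap between them, the *Ear* genes reach their highest values in WT GMP replicate 2, and *Rnase10* is higher in UREΔ cells.

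Set beside all genes tested, 3 of the 6 members tested were called between WT GMPs and WT LSKs (a call needs a fold of over 1.5 and an adjusted p under 0.05), where 27.3% of all genes were called, and 4 of 6 did not overlap, where 31.4% of all genes did not. With the replicate block 5 of 6 were called, against 40.9% of all genes. As *Ear1* and *Ear6* were bound to differ by the filter, nothing is read from these counts. Between UREΔ GMPs and UREΔ LSKs none of the 3 members tested was called by edgeR, where 21.8% of all genes were called, and 1 of them, *Ang*, had an unadjusted p under 0.05. DESeq2 called 1 member, *Ear6*, and edgeR with the block none, against 31.9% of all genes. The same 3 members overlapped, where 26.6% of all genes did not. The genotype comparisons were used in the choice of the family, and nothing is read from their counts, which stand beside the shares of all genes only as a description. *Rnase6* was the member past the thresholds among 4 in LSKs (6.14% of all genes), and *Rnase6* and *Ear1*, with *Ear6* as well under the replicate block, among 6 in GMPs (8.30% of all genes). *Rnase6* did not overlap in LSKs (12.6% of all genes did not), and *Rnase6*, *Ear1* and *Ear6* did not in GMPs (14.8%). Whether the genotype effect differed between LSKs and GMPs could be compared for *Rnase4*, *Ang* and *Ear2*, since the other *Ear* genes had 2 counts or none in the LSK groups. EdgeR called none of the 3, with 0 at an unadjusted p under 0.05 and 0 by DESeq2, where 1.22% of all genes were called.

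**Figure D5:**
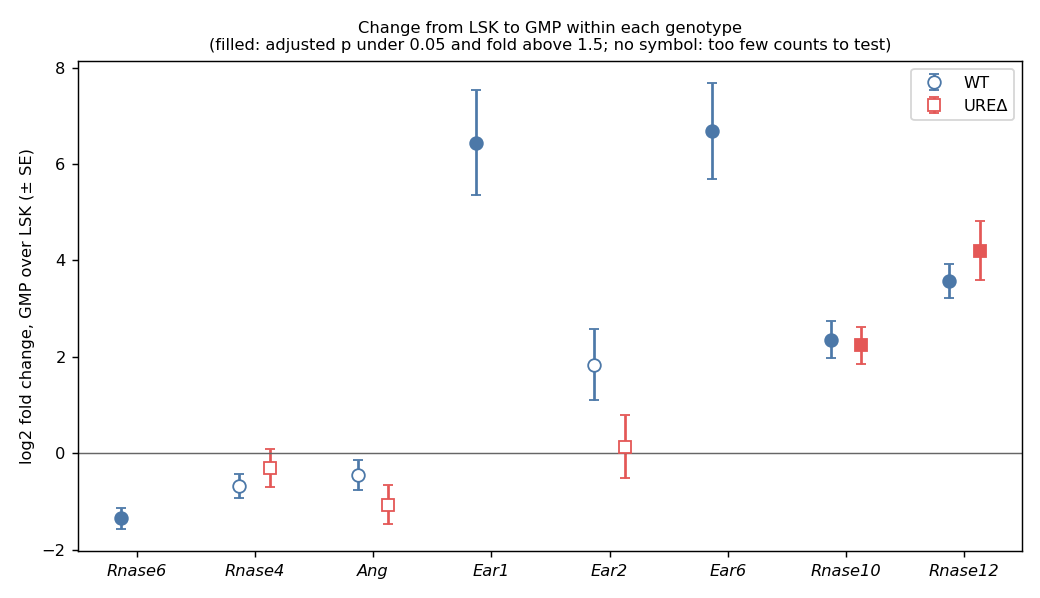
Log2 fold change of GMPs over LSKs (vertical, with the SE) for members and for *Rnase10* and *Rnase12* in WT (circles) and UREΔ (squares), filled where the adjusted p is under 0.05 and the fold above 1.5. For *Ear1*, *Ear6* and *Rnase10* in WT and *Rnase12* in UREΔ, which passed the filter through the GMP libraries, the fill is not read as a test. *Rnase6* lies at -1.35 and *Ear1* and *Ear6* above 6 in WT, and both *Rnase10* and *Rnase12* lie above 2 in either genotype.

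Levels per kilobase of transcript allow the genes to be compared with each other. In WT LSKs the mean level was 55.4 CPM per kilobase for *Rnase6*, 6.25 for *Rnase4*, 3.36 for *Ang*, 0.906 for *Ear2*, 0.03 for *Ear1* and 0.0221 for *Ear6*. In WT GMPs it was 21.9 for *Rnase6*, 3.94 for *Rnase4*, 3.27 for *Ear2*, 3.26 for *Ear1*, 2.95 for *Ear6* and 2.46 for *Ang*. In UREΔ cells *Rnase4* led the members, at 6.76 in LSKs and 5.57 in GMPs, followed by *Ang* at 3.66 and 1.79, while *Rnase6* was at 0.219 and 0.474. With the longest transcript in place of the mean transcript length, *Rnase6* remained the highest member in WT LSKs (24.6) and WT GMPs (9.75).

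Of 13 further RNase A family genes in the table, *Rnase10* and *Rnase12* had more than 2 counts in a library. *Rnase10* (chr14:51007751-51010758, plus strand), known mainly from the epididymis, had 0.32, 0.302, 0.391 and 0.725 CPM in WT LSKs, 2.26, 3.75, 1.31 and 1.30 CPM in UREΔ LSKs, 1.99, 1.87, 2.10 and 3.01 CPM in WT GMPs and 9.98, 10.9, 9.07 and 11.8 CPM in UREΔ GMPs. It was higher in UREΔ in 4 of 4 replicate numbers in either cell type, with no overlap. In GMPs the log2 fold change was 2.21 ± 0.25 (SE, adjusted p = 0.00115), with adjusted p values of at most 0.00664 when 1 library was left out. WT LSKs held 9 to 18 counts per library, so *Rnase10* passed the filter in comparisons with them through the higher group, and no p is given there. In LSKs the log2 fold change of UREΔ against WT was 2.28 ± 0.52 (SE), 2.21 with the replicate block and 2.12 with a term for sex, and it ranged from 1.88 to 2.62 when 1 library was left out. From LSKs to GMPs *Rnase10* rose by 2.24 ± 0.38 (SE, adjusted p = 0.00332) in UREΔ on the log2 scale, and in WT the log2 fold change was 2.35 ± 0.39 (SE). In replicates 1 and 4 and replicates 2 and 3 alone, the genotype difference was 1.74 and 2.83 in LSKs and 2.11 and 2.30 in GMPs (adjusted p = 0.0119 and 0.1).

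*Rnase12* (chr14:51056698-51057661, minus strand) had 0.385 to 0.806 CPM in WT LSKs, 0.117 to 0.421 CPM in UREΔ LSKs, 5.02 to 9.58 CPM in WT GMPs and 2.65 to 8.71 CPM in UREΔ GMPs. It rose from LSKs to GMPs by 3.57 ± 0.36 (SE, adjusted p = 0.000196) in WT. In UREΔ the log2 fold change was 4.20 ± 0.61 (SE), where LSKs held 3, 7, 10 and 4 counts, so that *Rnase12* passed the filter there only through the GMP libraries and no p is given. For UREΔ against WT it had -1.49 ± 0.53 in LSKs, where it passed the filter through the WT libraries and no p is given, and -0.81 ± 0.44 in GMPs (adjusted p = 0.355), lower in 4 of 4 replicate numbers in either cell type. Without UREΔ GMP replicate 3, its highest UREΔ library, the value in GMPs was -1.38 (adjusted p = 0.0425, edgeR). No other omission of a library gave a call. The value was -0.62 without UREΔ GMP replicate 1, and adjusted p values ranged up to 0.628.

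*Rnh1*, the ribonuclease inhibitor, was at 167 to 244 CPM in all libraries and was not called in any of the 4 comparisons, with log2 fold changes of -0.08 ± 0.13 and -0.14 ± 0.13 (SE) for UREΔ against WT in LSKs and GMPs and 0.12 ± 0.13 and 0.01 ± 0.13 for GMPs against LSKs in WT and UREΔ. *Plxnb2*, the angiogenin receptor, was lower in UREΔ GMPs than in UREΔ LSKs (-1.62 ± 0.40 SE, adjusted p = 0.0172). In UREΔ against WT GMPs it had -1.13 ± 0.48 (SE, adjusted p = 0.228), and -0.96 with the replicate block (adjusted p = 0.0131).

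Of 12 genes for breakdown and sensing of nucleic acids in lysosomes, 10 could be tested in either genotype comparison. In LSKs 2 were lower in UREΔ and none higher, namely *Pld4*, an exonuclease of the endolysosome (-3.53 ± 0.38 SE, adjusted p = 0.000771), and *Unc93b1*, which carries nucleic acid-sensing Toll-like receptors to it (-1.22 ± 0.23 SE, adjusted p = 0.0116). In GMPs 3 were lower and none higher, *Pld4* (-1.95 ± 0.41 SE, adjusted p = 0.0181), *Unc93b1* (-2.13 ± 0.32 SE, adjusted p = 0.00381) and *Tlr3* (-3.83 ± 0.91 SE). *Tlr3* had a mean log2 CPM of -0.44 over the compared groups and passed the filter through the WT libraries. Its call is thus built in and no p is given. With the replicate block 2 were higher and 5 lower in GMPs. The medians over the tested genes were -0.46 in LSKs and -0.82 in GMPs, and the medians over all genes 0.00 and 0.01. *Rnaset2a* and *Rnaset2b*, near-identical copies for the lysosomal RNase T2, did not pass in either genotype comparison, except *Rnaset2a* in GMPs with the block (0.99, adjusted p = 0.0211), and were higher in UREΔ GMPs than in UREΔ LSKs (1.03 ± 0.27 and 1.05 ± 0.33 SE, adjusted p = 0.0222 and 0.0467). In the cell type comparison, 2 genes were higher (*Tlr8* and *Pld4*) and 2 lower (*Pld3* and *Tlr7*) of 10 in WT GMPs, and 3 higher and 2 lower of 9 in UREΔ GMPs. Of 13 ribonucleases of other families, none was called between the genotypes by edgeR, with 1 in LSKs and 2 in GMPs at an unadjusted p under 0.05 and 0 by DESeq2 in either, while with the block 1 was higher and 1 lower in GMPs. In GMPs against LSKs, 3 were higher in WT GMPs than WT LSKs (which encode the subunits of RNase H2, *Rnaseh2a*, *Rnaseh2b* and *Rnaseh2c*, or 4 higher and 1 lower with the block) and 2 in UREΔ GMPs (*Rnaseh2c* and *Rnasek*). Of all genes, 27.3% were called between the cell types in WT and 21.8% in UREΔ. Between the genotypes the shares were 6.14% in LSKs and 8.30% in GMPs. Nothing is read from the cell type counts of either list.

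The nearest tested gene outside the members was *Rnase12* before and *Mettl17* after the stretch with *Rnase4*, *Ang*, *Rnase6* and *Ear6*. *Rnase12* ended 33416 bases before *Rnase4*. *Mettl17* began 30199 bases after *Ear6* but 752655 bases after *Rnase6*, so it is not a close neighbour of *Rnase6*. *Mettl17* (chr14:51884842-51893039) had log2 fold changes of -0.04 ± 0.28 (SE) in LSKs and 0.05 ± 0.23 in GMPs for UREΔ against WT (adjusted p = 0.984 and 0.948). Around *Ear1*, *Ear10* and *Ear2* the nearest tested genes were *Gm49083*, *Gm8113* and *AC160336.1*. *Gm49083* was lower in UREΔ LSKs (-1.51 ± 0.30 SE, adjusted p = 0.0169) and had 0.13 ± 0.35 in GMPs, and *Gm8113* was lower in UREΔ GMPs (-1.09 ± 0.23 SE, adjusted p = 0.0197) and had -0.54 ± 0.32 in LSKs. *AC160336.1* had 0.28 and 0.33.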

How the data were processed

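Per the labels and the methods, RNA of LSKs and GMPs was made into unstranded paired-end libraries, with no molecular identifiers and at most 10 ng of input. The authors quantified reads with salmon (GRCm38 per the submitters' processing notes) and tximport and deposited estimated counts per gene, rounded to whole numbers and not normalized. Such counts cannot separate near-identical copies or strands, and intervals cover counting error only. The annotation release is not given in the sources used here.

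Tests used edgeR 4.0.16 (R 4.3.3), with TMM, filterByExpr, quasi-likelihood and Benjamini-Hochberg adjustment over all genes, one fit per pair of groups with 4 libraries each. The SE is the log2 fold change divided by the root of F. A call needs an adjusted p under 0.05 and a fold above 1.5, and the interaction the p alone. A gene passes the filter if as many of the compared libraries reach it as the smallest group holds, whichever group they belong to. CPM uses TMM sizes over the 16 libraries. Log2 CPM used a prior count of 2. The scripts were tested on simulated data. Sequence was compared with Biopython 1.88 and plots were drawn with matplotlib 3.10.9.

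The replicate numbers of the labels were checked as pairs. Deviations of same-numbered libraries correlated in every pair (r from 0.333 to 0.925 over 9076 genes). Some libraries of different number correlated more. WT GMP replicate 1 and UREΔ GMP replicate 4 had r = 0.667, against 0.333 for replicate 4 of both genotypes. The number is thus not shown to pair the samples, and fits blocked on it are given as an alternative. A fit with the number as a block is given where it changes a call of a member between the cell types or moves a count of calls given here by over 1.5 times. Libraries of replicates 1 and 4 also deviated together, against those of 2 and 3. The labels name no batch, so these sets come from the data.

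Members and gene lists were chosen with earlier results of these data known. Named were all members, *Spi1*, further family genes with at least 10 counts, the inhibitor, receptor and RNase T2 genes, *Prg2*, *Epx*, up to 4 called genes per list, the 5 most similar genes of each member and the nearest tested neighbours. *Il5ra*, *Alox15*, *Ly6c2*, *Cd14*, *Cx3cr1*, *Ly86*, *Klf4*, *Rag1*, *Il7r*, *Siglech*, *Cd209a* and *Ddx3y* were named after their values were seen. Alternatives were DESeq2 1.42.0, other size factors, no filter or a stricter filter (50 counts in 4 libraries), a joint fit, the block, a term for these sets, summed paralogs and leaving out each library. No value column lacked a sample. The replicate sets alone and a term for sex were added after seeing the data.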

Additional observations from a re-analysis of the deposited data

Results flagged for a closer look

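Of 55 groups of 4 libraries in which a library reached 10 counts, taken over the members, the other family genes, the inhibitor, receptor and RNase T2 genes, *Spi1*, *Prg2* and the total counts, 8 had a library whose gap to the nearest other library as a share of the group's range exceeded Dixon's 95% critical value for 4 samples. Chance gives this in about 1 in 20 groups. In WT GMPs, replicate 2 was highest for *Ear1* (5.48 CPM, others 0.623 to 0.996), *Ear2* (5.98 CPM, others 0.882 to 1.37) and *Ear6* (5.86 CPM, others 0.866 to 1.71). *Rnase6* was highest in UREΔ LSK replicate 2 (0.796 CPM, others 0 to 0.0836). *Prg2* was highest in UREΔ LSK replicate 4 (22.2 CPM, others 0 to 1.19). *Rnh1* was highest in WT LSK replicate 4 (205 CPM, others 193 to 194), *Plxnb2* in WT GMP replicate 1 (64.8 CPM, others 16.3 to 24.4) and *Rnaset2b* in WT GMP replicate 3 (232 CPM, others 89.7 to 99.9). The reasons for these values were not tested.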

How the results depend on the processing

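The direction of each member called in the cell type comparisons was kept under each alternative that gave a value. Depth limits the *Ear* genes, since the 4 WT LSK libraries together held 2 counts each of *Ear1* and *Ear6*, and the reads of *Ear1* and *Ear2* cannot be assigned with certainty. The causes of the shifts below were not tested except where stated. From LSKs to GMPs in WT, *Ear2* was past the thresholds with DESeq2 (1.95), the term for replicates 1 and 4 (1.67), the replicate block (1.65) and, in a sum that adds *Ear1*, *Ear6*, *Ear14*, *Rnase2a* and *Rnase2b*, summed paralogs (3.27), *Rnase4* with the term for replicates 1 and 4 (-0.67) and the block (-0.68), and *Rnase6* was not in the joint fit (-1.34). As the value of *Ear2* was 0.86 without WT GMP replicate 2, nothing is read from its passes. In UREΔ, *Ang* passed in the joint fit (-1.03). Members called in WT were 3, but 4 with DESeq2, 2 in the joint fit, 5 with the block or the term for replicates 1 and 4 and 1 with the stricter filter, which removed *Ear1*, *Ear2* and *Ear6*. In UREΔ they were 0, but 1 with DESeq2, 1 with no filter and 3 in the joint fit. For UREΔ against WT in GMPs, *Ear1* ranged from -4.80 to -2.70 when 1 library was left out, and the sum of its paralogs had -2.37. *Rnase6* in LSKs moved to -9.26 in replicates 1 and 4 and ranged from -10.01 to -7.51, and in GMPs it ranged from -6.66 to -5.09. *Ang* moved to -0.35 in LSKs in replicates 1 and 4, and the sum of *Ang* and *Rnase4* had 0.28 in GMPs.

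Over all genes, calls in UREΔ against WT LSKs were 930, but 1425 with the term for replicates 1 and 4, 1631 with DESeq2, 1433 with the block, 386 in replicates 2 and 3, 518 with the term for sex and 565 to 961 without 1 library. In GMPs they were 1148, but 1880, 1995, 2260, 108, 628 and 715 to 1176. Interaction calls were 194, but 572 with the term for replicates 1 and 4, 672 with DESeq2, 1047 with the block, 2 in replicates 2 and 3 and 84 to 283 without 1 library. In replicates 2 and 3, calls between the cell types were 2507 in WT (4037 in all replicates) and 810 in UREΔ (3133). Under the fit with the block, the log2 fold change of *Ear6* between the genotypes in GMPs was -2.39, given as a description. Beside the calls of *Ear2* and *Rnase4* named above, the block changed no call of a member between the cell types.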
